A study of Homo sapiens with 6 samples.

Results

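The genes examined were 30 genes of cholesterol synthesis and of its control by the sterol regulatory element-binding proteins (SREBPs). Of these, 29 had enough reads to be tested. All 30 were chosen by their place in the pathway from the 47470 genes listed, with earlier results of these data known. They were 8 enzymes of the mevalonate and isoprenoid steps, 9 enzymes of the squalene and sterol steps, 5 genes of the SREBP pathway, 5 genes of sterol transport and esterification, and the 2 liver X receptors with their target MYLIP. RNA was sequenced from HEK293T cells, a wild-type line of human embryonic kidney origin with the large T antigen of SV40, grown for 1 day with 1 mM of the histone deacetylase inhibitor valproic acid (VPA) or left untreated. Each condition had 3 libraries. The labels do not say that the replicates were separate cultures, so the p-values measure only the spread between these samples, which may be technical.

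Cells build cholesterol from acetyl-CoA, first to mevalonate and farnesyl diphosphate, then through squalene and lanosterol. When sterols are plentiful in the endoplasmic reticulum, the INSIG proteins hold SCAP and its bound SREBP there, and when sterols are scarce SCAP carries SREBP to the Golgi, where it is cleaved and freed to activate genes of sterol synthesis and uptake. The liver X receptors respond in the other direction, since oxysterols activate them and they switch on genes that carry sterol out of the cell.

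The reads counted on genes numbered 18622267 to 18828495 per library, and replicates differed by more than sampling noise (chi-square per gene 1.62 to 4.80). All 10 markers of the HEK293T line were detected in both conditions, with a summed level of 1082 to 1095 CPM (counts scaled to a common library total) in untreated and 1305 to 1375 in VPA-treated libraries. The 6 markers of other cell types summed to 0.373 to 0.797 CPM in untreated libraries, where PTPRC, CD3E and CDH5 were at 0, and to 2.90 to 3.32 CPM in VPA-treated libraries, where all 6 had counts. The part of these markers in the results was not tested. In bulk RNA, fewer cells that express a gene and less RNA per cell cannot be told apart.

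More of the pathway genes rose than fell after VPA, and none was called past a log2 fold change of 1. At an adjusted p under 0.05 in edgeR's quasi-likelihood test, 14 of the 29 tested genes rose (48.3%) and 4 fell (13.8%), beside 32.9% and 30% of the 15298 genes tested. All 29 had a mean of at least 100 normalized counts, and of the 11065 genes at that level 28.7% rose and 38.8% fell. Here and below, rose and fell are used only of genes that passed this test. The log2 fold changes, VPA-treated over untreated, ran from -0.51 to 0.75 with a median of 0.09, beside a median of 0.01 over all genes tested. No gene of the pathway was called past a log2 fold change of 1 in either direction by edgeR or by DESeq2, although 12% of all genes tested rose by that much and 0.503% fell by that much. An unadjusted p under 0.05 was reached by 20 of the 29, near the 66.2% of all genes tested that reached it. All VPA-treated libraries lay above all untreated libraries for 14 of the genes and below them for 6, beside 34.8% and 31.0% of all genes tested.

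**Figure D1:**
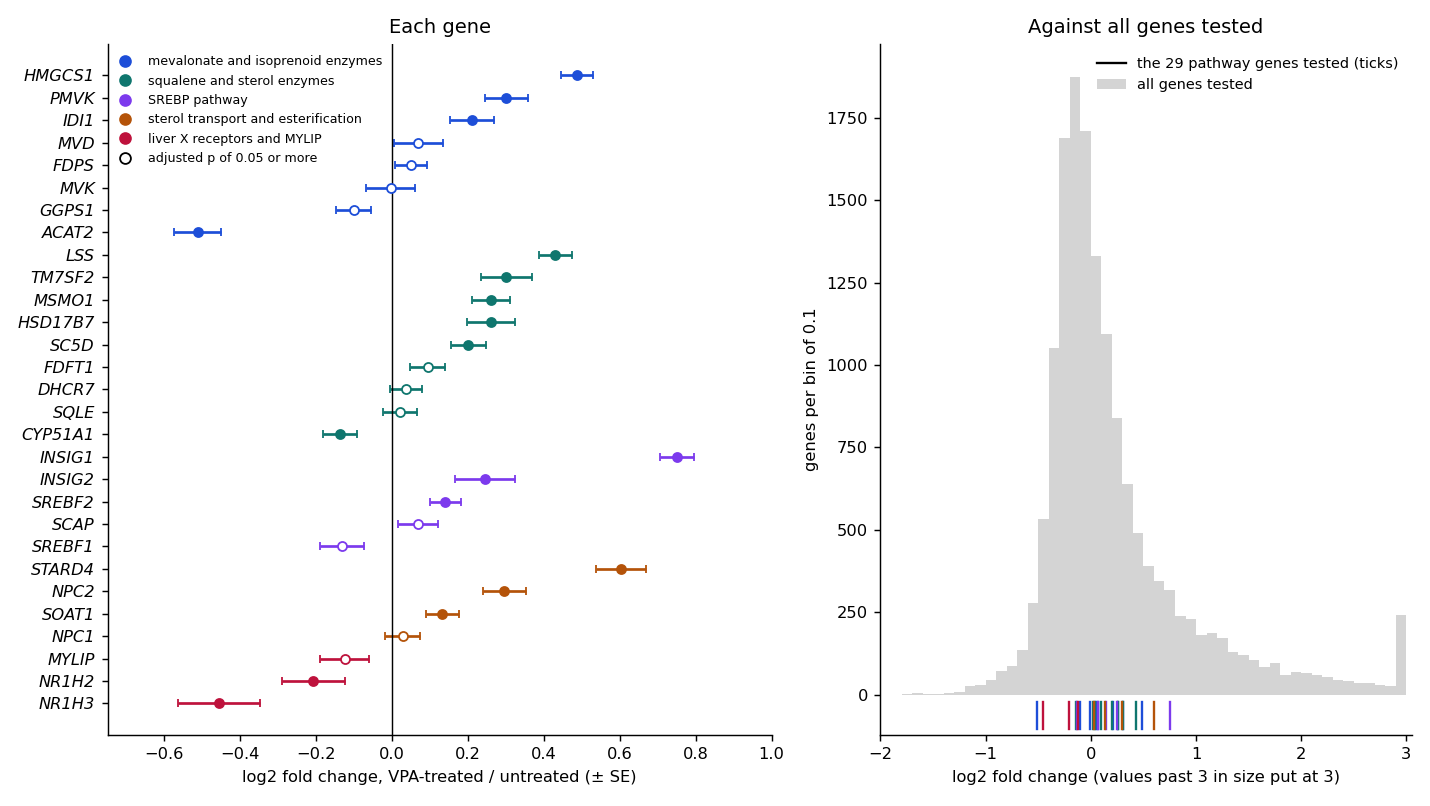
Left, the log2 fold change (VPA-treated over untreated) of each tested gene with its standard error, coloured by role, with open circles for genes at an adjusted p of 0.05 or more. Right, the same values as ticks under the distribution of all 15298 genes tested. The pathway genes lie between -0.51 (ACAT2) and 0.75 (INSIG1), inside the much wider range of all genes.

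The counts depended on how the libraries were scaled. With trimmed-mean (TMM) scaling, 52.3% of all genes called were higher in VPA-treated cells, and with the median of the ribosomal protein genes as the reference 91.8% were, while 26 pathway genes rose and 1 fell. Ribosomal protein genes took 6.66% to 6.78% of counts in untreated and 6.09% to 6.17% in VPA-treated libraries. That reference moved the median of all genes to 0.28, and library totals moved it to 0.14, with 21 pathway genes rising and 2 falling. The median of the pathway genes less the median of all genes was 0.09 under each of the 5 scalings, but -0.02 when all genes with any count entered the test. Changes below are given under TMM, and directions that turned under another scaling are named beside the gene. In all 14 alternative settings, 12 genes rose (INSIG1, STARD4, HMGCS1, LSS, TM7SF2, PMVK, NPC2, MSMO1, HSD17B7, IDI1, SC5D and SREBF2) and ACAT2 fell.

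**Figure D2:**
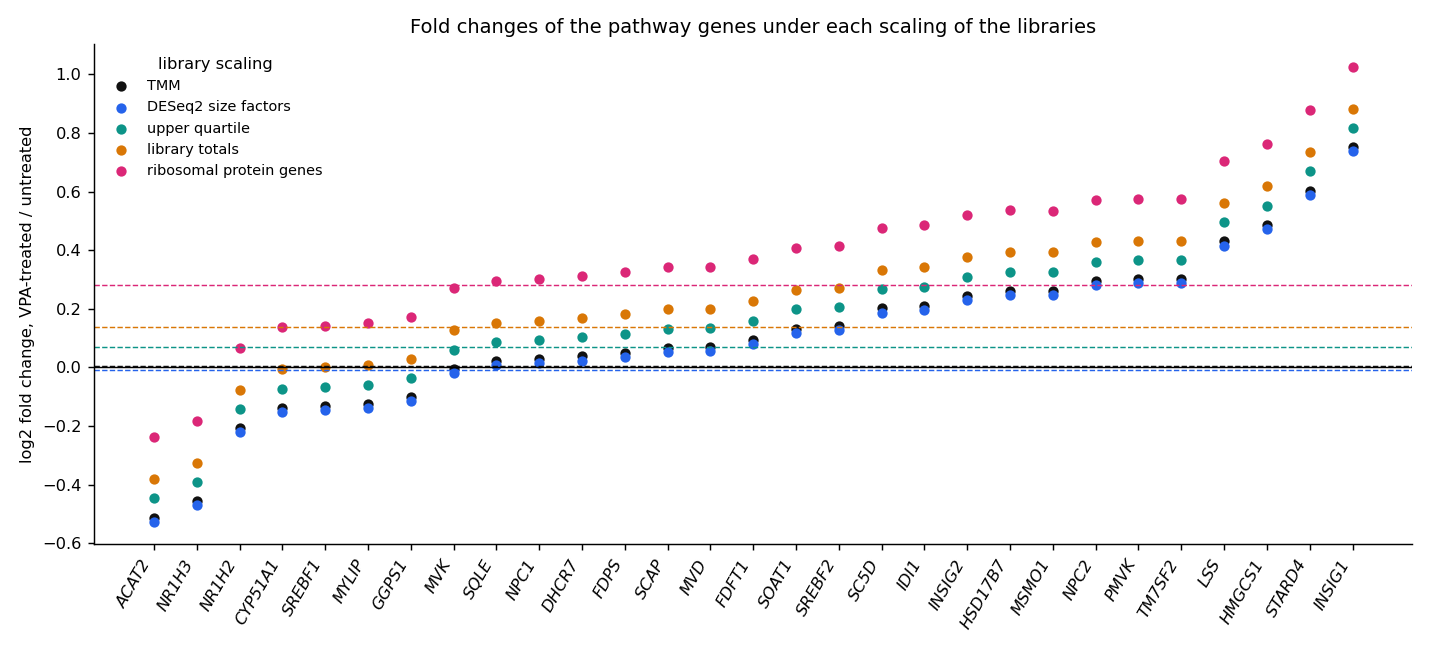
Each tested pathway gene's log2 fold change (VPA-treated over untreated) under 5 scalings of the libraries, ordered by the TMM value, with dashed lines at the median of all genes tested under each scaling. A change of scaling moves all genes by about the same amount, and INSIG1 passes 1 only with ribosomal protein genes as the reference (1.03).

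INSIG1, the sterol-sensitive anchor that holds SCAP in the endoplasmic reticulum and is itself a target of SREBP, had the largest fold change of the pathway. Its normalized counts, scaled by TMM to the mean library, were 2661, 2873 and 3009 without VPA and 4963, 4757 and 4658 with it. The groups were far apart, with the lowest VPA-treated library well above the highest untreated one. INSIG1 rose by 0.75 ± 0.05 (log2, SE), or 68.3%, with an adjusted p of 5.3e-12 in edgeR. The gene lies at 155297878 to 155310235 on chromosome 7 (GRCh38.p14, plus strand), and the divergent transcript INSIG1-DT, which overlaps it on the other strand, averaged 44.2 and 54.7 normalized counts and did not pass the test (adjusted p = 0.13).

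INSIG2, the second anchor, had 231, 237 and 219 normalized counts in untreated libraries and 273, 269 and 272 with VPA. All VPA-treated libraries were above all untreated ones, and it rose by 0.24 ± 0.08 (adjusted p = 0.010, edgeR). This call was lost in DESeq2 (adjusted p = 0.12) and without untreated replicate 3 (0.051). The ratio of INSIG1 to INSIG2 counts within a library went from 12.5 ± 1.13 to 17.7 ± 0.52 (SD, n = 3), without overlap. An exact two-sided permutation test gave p = 0.1, the smallest it allows for 3 against 3 libraries, and 0.15 after adjustment over the 6 gene pairs compared.

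SREBF2, which encodes SREBP-2, the main activator of cholesterol synthesis genes, had 5326, 5074 and 5226 normalized counts without VPA and 5960, 5678 and 5585 with VPA. It rose by 0.14 ± 0.04 (adjusted p = 0.0046), a small change with no overlap between the groups. SREBF1, which encodes the SREBP-1 isoforms that chiefly drive fatty acid synthesis, had 852, 748 and 761 normalized counts without VPA and 739, 713 and 705 with VPA. All VPA-treated libraries were lower, but its log2 fold change of -0.13 ± 0.06 did not pass (adjusted p = 0.056). With the replicate number as a block, SREBF1 was called lower (-0.13, adjusted p = 0.014), as it was without untreated replicate 2 or 3 or VPA-treated replicate 1 (adjusted p = 0.030, 0.035 and 0.049). It was also called lower with the size factors of DESeq2 and without the filter on low counts (adjusted p = 0.033 and 0.026). With ribosomal protein genes as the reference it was called higher (0.14, adjusted p = 0.044). The ratio of SREBF2 to SREBF1 was 6.63 ± 0.33 in untreated and 7.99 ± 0.07 in VPA-treated libraries (exact permutation p = 0.1, 0.15 adjusted over the 6 pairs).

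SCAP, the escort of SREBP to the Golgi, had 3499 to 3917 normalized counts without VPA and 3629 to 4221 with VPA, which overlapped. Its log2 fold change of 0.07 ± 0.05 did not pass (adjusted p = 0.27), though it did with the replicate block (0.07, adjusted p = 0.040). Upper quartile scaling, library totals and ribosomal protein genes also called SCAP higher (adjusted p = 0.027, 0.0046 and 1.1e-05). Of the 5 genes of the SREBP pathway, 3 rose and 0 fell in edgeR, beside 32.9% and 30% of all genes tested. An unadjusted p under 0.05 was reached by 4 of them, beside 66.2% of all genes tested.

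The promoter sequences of some of these genes are shown because SREBPs act through short sequences near the start site, usually beside NF-Y and Sp1. The printed stretch is the 200 bases before the start site, read 5′ to 3′ on the gene's strand (RefSeq, GRCh38.p14). Matches are in capitals on either strand, and are TCACNCCAC (a core of the sterol regulatory element), CCAAT (the NF-Y box, which reads ATTGG on the other strand) and GGGCGG (the GC box bound by Sp1, which reads CCGCCC). Adjacent GC boxes can overlap. The windows are chr7:155297678-155297877 for INSIG1, chr5:111512536-111512735 for STARD4, chr5:43313413-43313612 for HMGCS1, chr21:46228775-46228974 for LSS, chr22:41832905-41833104 for SREBF2 and chr7:92134478-92134677 for CYP51A1. HMGCS1 has another listed start site, whose window is not shown. The CYP51A1 window lies inside the annotated gene, before a listed start site downstream of the gene's 5′ end at 92134803. The windows of the first 5 genes end at the annotated start of the gene. The first 5 genes rose and CYP51A1 fell.
INSIG1: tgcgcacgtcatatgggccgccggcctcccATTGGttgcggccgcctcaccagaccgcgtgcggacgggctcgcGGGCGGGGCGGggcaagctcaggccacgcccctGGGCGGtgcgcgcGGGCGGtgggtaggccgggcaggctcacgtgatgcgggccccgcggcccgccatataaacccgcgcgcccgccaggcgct
STARD4: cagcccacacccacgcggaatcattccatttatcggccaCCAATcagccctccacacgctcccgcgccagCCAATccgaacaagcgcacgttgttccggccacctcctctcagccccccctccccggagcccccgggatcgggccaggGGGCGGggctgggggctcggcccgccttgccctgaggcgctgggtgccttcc
HMGCS1: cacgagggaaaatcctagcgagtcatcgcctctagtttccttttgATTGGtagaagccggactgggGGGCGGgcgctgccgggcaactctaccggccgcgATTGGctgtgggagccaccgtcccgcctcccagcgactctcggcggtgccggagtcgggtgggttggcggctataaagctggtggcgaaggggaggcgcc
LSS: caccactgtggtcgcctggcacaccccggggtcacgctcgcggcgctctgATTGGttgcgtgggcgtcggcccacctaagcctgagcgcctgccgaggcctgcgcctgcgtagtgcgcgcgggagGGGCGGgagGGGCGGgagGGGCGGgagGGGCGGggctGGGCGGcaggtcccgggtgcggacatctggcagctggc
SREBF2: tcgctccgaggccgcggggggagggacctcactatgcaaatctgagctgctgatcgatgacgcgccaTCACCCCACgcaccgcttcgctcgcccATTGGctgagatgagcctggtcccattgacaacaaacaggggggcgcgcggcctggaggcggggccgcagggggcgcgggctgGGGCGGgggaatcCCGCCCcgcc
CYP51A1: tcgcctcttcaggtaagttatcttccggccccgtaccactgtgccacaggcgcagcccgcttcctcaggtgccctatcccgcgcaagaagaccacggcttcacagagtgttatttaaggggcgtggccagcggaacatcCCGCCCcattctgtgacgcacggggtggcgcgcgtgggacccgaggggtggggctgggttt

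Of the 30 genes, 26 had windows in the promoter table, all but ACAT2, FDFT1, SQLE and SOAT2. In windows of 250 bases before to 50 after a start site, the sterol regulatory element core was found for 1 gene of 26, SREBF2, beside 1.36% of the 11739 tested genes in the table. The CCAAT box was found for 19 of 26, beside 42.4%, and the GC box for all 26, beside 76.2%. By direction, the CCAAT box was found for 12 of the 14 genes that rose (all but PMVK and INSIG2), 1 of the 3 that fell and 6 of the 9 that did not pass. A match describes the letters and is no evidence of binding, and no match says only that these letters are not in the window.

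**Figure D3:**
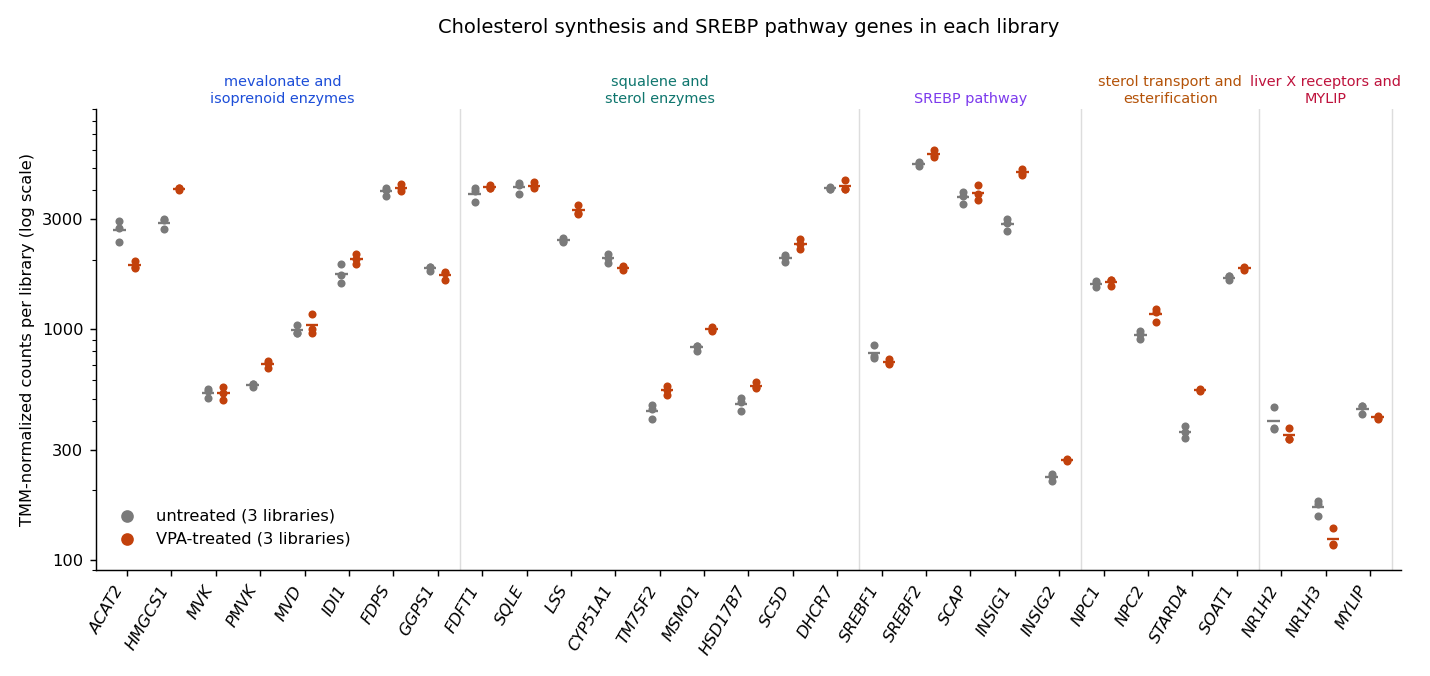
TMM-normalized counts of each of the 29 tested genes in every library (points, log axis) with group means (bars), grouped by role. For INSIG1, STARD4, HMGCS1 and LSS the VPA-treated points lie clearly above the untreated points, and for ACAT2 and NR1H3 clearly below.

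The first steps of the mevalonate route moved in opposite directions. ACAT2, the cytosolic thiolase that joins acetyl-CoA units, had 2385, 2755 and 2945 normalized counts without VPA and 1864, 1833 and 1970 with VPA, and fell by 0.51 on the log2 scale (SE 0.06, adjusted p = 2.4e-06). HMGCS1, which makes HMG-CoA in the next step, had 2703, 2964 and 2994 normalized counts without VPA and 3991, 4077 and 4073 with VPA, and rose by 0.49 ± 0.04 (adjusted p = 2.8e-09). The groups did not overlap for either gene. The ratio of HMGCS1 to ACAT2 went from 1.08 ± 0.06 to 2.14 ± 0.08, with no overlap (exact permutation p = 0.1, 0.15 adjusted).

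ACAT2 lies at 159762045 to 159779112 on chromosome 6 and overlaps TCP1, a chaperonin gene on the other strand, over 615 bases. TCP1 had 14210 ± 505 normalized counts without VPA and 12433 ± 583 with VPA, and fell by 0.19 on the log2 scale (adjusted p = 6.9e-04). The libraries were strand-specific, but the strand setting of the counting is not given in the sources used here. The part of TCP1 reads in the ACAT2 counts was therefore not tested. ACAT2 also overlaps SOD2 on the other strand, over 237 bases. The same limit holds for GGPS1 (with ARID4B over 964 bases), IDI1 (WDR37, 320), MVK (MMAB, 233) and SREBF1 (RAI1, 120), among others. HMGCS1, at 43287470 to 43313412 on chromosome 5, overlaps no other counted gene.

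Among the later mevalonate enzymes, PMVK and IDI1 rose. PMVK, phosphomevalonate kinase, had 578, 581 and 563 normalized counts without VPA and 727, 680.1 and 713 with VPA, and rose by 0.30 ± 0.06 (adjusted p = 8.4e-05). IDI1, the isomerase of the isoprene units, had 1584, 1724 and 1915 normalized counts without VPA and 1920.4, 2005 and 2116 with VPA, and rose by 0.21 ± 0.06 (adjusted p = 0.0036). The PMVK groups were well separated, while for IDI1 the highest untreated and lowest VPA-treated libraries nearly met.

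The test was not passed by 4 enzymes of this stretch, MVK, MVD, FDPS and GGPS1. MVK, mevalonate kinase, had means of 531 ± 26.4 and 529 ± 33.2 normalized counts (SD, n = 3), and its log2 fold change of -0.0042 ± 0.06 turned positive under 3 of the scalings and was called higher with ribosomal protein genes (0.27, adjusted p = 0.0013). The log2 fold change was 0.07 ± 0.06 for MVD, the decarboxylase, and 0.05 ± 0.04 for FDPS, which makes farnesyl diphosphate, and both had overlapping groups. Library totals and ribosomal protein genes called MVD higher (adjusted p = 0.013 and 1.0e-04). Upper quartile scaling, library totals and ribosomal protein genes called FDPS higher (adjusted p = 0.024, 8.0e-04 and 8.2e-07). GGPS1, which lengthens farnesyl to geranylgeranyl diphosphate, had 1790 to 1867 normalized counts without VPA and 1627 to 1769 with VPA. All GGPS1 values were lower with VPA, its log2 fold change was -0.10 ± 0.05 (adjusted p = 0.058), and with the replicate block it was called lower (-0.10, adjusted p = 0.011), as it was without untreated replicate 3 (-0.13, adjusted p = 0.038). The size factors of DESeq2 and leaving out the filter on low counts also called GGPS1 lower (adjusted p = 0.034 and 0.028). Library totals gave 0.03, and with ribosomal protein genes as the reference GGPS1 was called higher (0.17, adjusted p = 0.0028). The ratio of FDPS to GGPS1 was 2.16 ± 0.11 in untreated and 2.40 ± 0.19 in VPA-treated libraries, which overlapped (exact permutation p = 0.2, also 0.2 adjusted).

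Of the 9 squalene and sterol enzymes, 5 rose (55.6%), 1 fell (11.1%) and 3 did not pass, beside 32.9% and 30% of all genes tested that rose and fell. LSS, lanosterol synthase, which closes the sterol rings, had 2479, 2409 and 2392 normalized counts without VPA and 3450, 3158 and 3201 with VPA. These groups were widely separated, and LSS rose by 0.43 ± 0.04 (adjusted p = 2.0e-08). CYP51A1, the demethylase that acts on lanosterol next, had 1944, 2112 and 2025 normalized counts without VPA and 1854, 1878 and 1797 with VPA, and fell by 0.14 (SE 0.04, adjusted p = 0.011). That fall was lost with upper quartile scaling (adjusted p = 0.17), library totals (0.92), and without untreated replicate 2 (0.060) or VPA-treated replicate 3 (0.056), and with ribosomal protein genes CYP51A1 was called higher (0.14, adjusted p = 0.0092). The ratio of LSS to CYP51A1 was 1.20 ± 0.07 in untreated and 1.77 ± 0.09 in VPA-treated libraries, without overlap (exact permutation p = 0.1, 0.15 adjusted).

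The other 4 sterol enzymes that rose did so by 0.20 to 0.30. TM7SF2, a sterol reductase, had 467, 449 and 406 normalized counts without VPA and 568, 542 and 519 with VPA, and rose by 0.30 ± 0.07 (adjusted p = 4.9e-04). MSMO1, a methylsterol oxidase, had 846, 849 and 804 normalized counts without VPA and 981, 1019 and 994 with VPA, and rose by 0.26 ± 0.05 (adjusted p = 1.3e-04). In both genes every VPA-treated library was above every untreated one. HSD17B7, the ketosteroid reductase of the pathway, had 440, 502 and 482 normalized counts without VPA and 554, 563 and 590 with VPA, and rose by 0.26 ± 0.06 (adjusted p = 0.0013). Its 2 pseudogenes held 326 counts over all libraries, and the copy HSD17B7P2 also rose, by 0.58 ± 0.17 (adjusted p = 0.0054). SC5D, the sterol desaturase, had 1962, 2098 and 2046 normalized counts without VPA and 2230, 2341 and 2448 with VPA, and rose by 0.20 ± 0.05 (adjusted p = 6.1e-04). None of these 4 genes had overlapping groups.

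FDFT1, squalene synthase, had a log2 fold change of 0.09 ± 0.05 (adjusted p = 0.086) and was called higher with the replicate block (0.10, adjusted p = 0.0094) and without untreated replicate 2 (0.13, adjusted p = 0.043). Upper quartile scaling, library totals, ribosomal protein genes and a minimum of 10 counts in every library also called FDFT1 higher (adjusted p = 0.0053, 2.3e-04, 2.8e-07 and 0.037). SQLE, squalene epoxidase, an oxygen-dependent step, had 4131 ± 242 normalized counts without VPA and 4190 ± 136 with VPA. Its log2 fold change of 0.02 ± 0.04 turned sign in DESeq2 (-0.0041). Library totals and ribosomal protein genes called SQLE higher (adjusted p = 0.0047 and 5.2e-06). DHCR7, the reductase of the last step of one branch, had a log2 fold change of 0.04 ± 0.04. It was called higher with upper quartile scaling, library totals and ribosomal protein genes (adjusted p = 0.039, 0.0018 and 1.5e-06). These 3 genes had overlapping groups and did not pass the main test.

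Summed over the 17 synthesis enzymes, normalized counts were 35538 ± 1262 in untreated and 38108 ± 449 in VPA-treated libraries (SD, n = 3), a difference of 7.23% under TMM. Untreated libraries had 34081, 36266 and 36267 and VPA-treated libraries 38445, 37598 and 38282, without overlap. As a share of all counts on genes the enzymes took 0.181% and 0.213%. Over all 30 genes the sums were 53908 ± 1180 and 59564 ± 981, a difference of 10.5% under TMM, and the shares were 0.275% and 0.333%. The shares, which use library totals, differed by more than the TMM sums, so the size of these differences depends on the scaling.

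Levels of different genes are compared only per length, as TMM-scaled CPM per kilobase of transcript. On this scale FDPS was the highest enzyme (149 ± 6.41 untreated, 155 ± 5.57 VPA-treated), followed in untreated cells by FDFT1 (102 ± 7.57) and ACAT2 (94.7 ± 9.99), which did not differ beyond their spread. DHCR7 (82.9 ± 1.09) and SQLE (74.5 ± 4.36) came next, and MVK was the lowest enzyme (10.002 ± 0.50). In VPA-treated cells ACAT2 was at 66.4 ± 2.53, below DHCR7 (85.1 ± 4.402) and SQLE (75.6 ± 2.45). INSIG1 was at 52.3 ± 3.22 in untreated cells, close to SREBF2 (53.1 ± 1.29), and at 88.0 ± 2.86 in VPA-treated cells, above SREBF2 (58.5 ± 1.99).

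**Figure D4:**
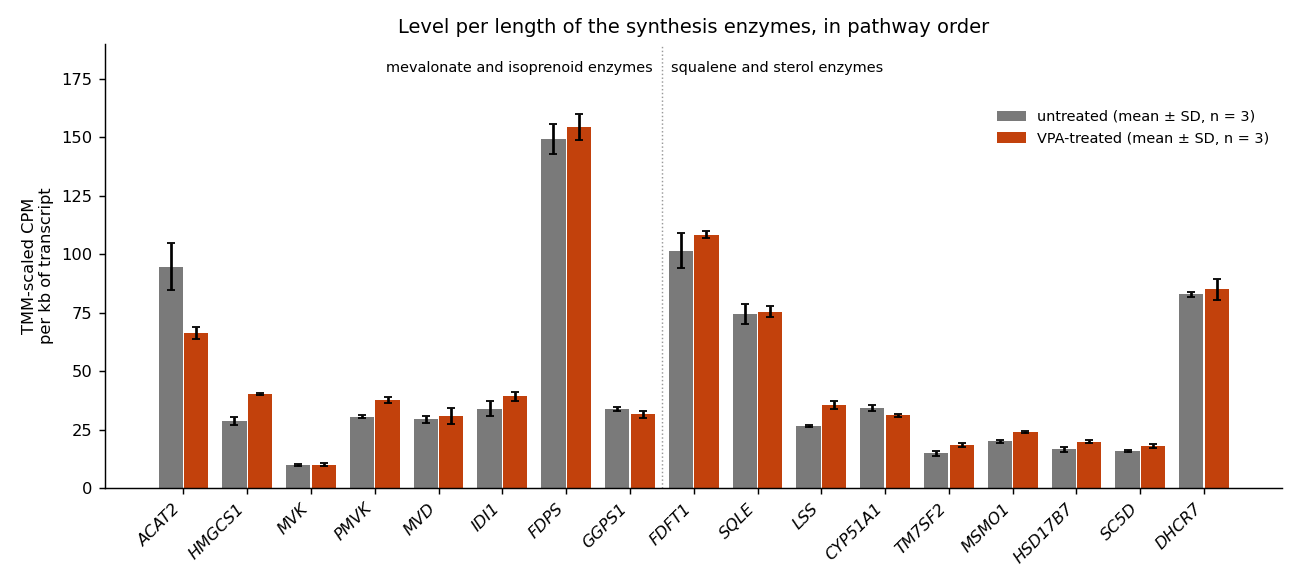
Level per length of the 17 synthesis enzymes in pathway order (bars, mean; lines, SD over 3 libraries), as TMM-scaled CPM per kilobase of transcript. FDPS is the highest in both conditions (149 and 155), and ACAT2 falls from 94.7 to 66.4.

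STARD4, a carrier that moves sterol between membranes in the cytosol, was the second largest rise of the pathway. It had 358, 336 and 380.01 normalized counts without VPA and 543, 550.03 and 539 with VPA, and rose by 0.60 ± 0.07 (adjusted p = 5.9e-08). The VPA-treated libraries were tight and far above the untreated ones. NPC2, which hands cholesterol out of the lysosome, had 906, 952 and 980.5 normalized counts without VPA and 1189, 1072 and 1223 with VPA, and rose by 0.30 ± 0.06 (adjusted p = 8.6e-05). NPC1, its partner in the lysosomal membrane, had 1574 ± 53.6 and 1604 ± 56.9 normalized counts and did not pass (0.03 ± 0.05, adjusted p = 0.62). Library totals and ribosomal protein genes called NPC1 higher (adjusted p = 0.0049 and 5.1e-06). NPC1 overlaps RMC1 on the other strand over 25639 bases, so its counts carry the strand limit given for ACAT2.

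SOAT1, which esterifies cholesterol for storage, had 1635, 1694 and 1691 normalized counts without VPA and 1805, 1840 and 1857 with VPA, and rose by 0.13 ± 0.04 (adjusted p = 0.011). The groups did not overlap, but the call was lost in DESeq2 (adjusted p = 0.095) and without the filter on low counts (0.054). SOAT2, the esterifying enzyme of intestine and liver, had 1 count in 1 untreated library and 0 in the other 5, and was not tested.

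Both liver X receptor genes passed the test as lower with VPA, although the call of NR1H2 was lost in many of the alternatives. NR1H3 (LXR-alpha) had 174, 180.04 and 154 normalized counts without VPA and 117, 138 and 116 with VPA, and fell by 0.46 on the log2 scale (SE 0.11, adjusted p = 8.9e-04), without overlap. ACP2, which overlaps NR1H3 on the other strand, fell too, by 0.31 on the log2 scale (adjusted p = 8.0e-05), and its part in the NR1H3 counts was not tested. The NR1H3 call was lost with ribosomal protein genes as the reference (adjusted p = 0.14).

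NR1H2 (LXR-beta) had 461, 373 and 368 normalized counts without VPA and 372, 335 and 334 with VPA. The groups overlapped, and replicate 1 was the highest library of the untreated group, while each VPA-treated library lay below the untreated library of the same number. It fell by 0.21 on the log2 scale (SE 0.08, adjusted p = 0.036), but without untreated replicate 1 the value was -0.10 (adjusted p = 0.28), without VPA-treated replicate 2 or 3 the adjusted p was 0.11 for both, DESeq2 gave 0.070, and ribosomal protein genes gave a positive value (0.07). Upper quartile scaling, library totals and a minimum of 10 counts in every library also ended the call, with an adjusted p of 0.14, 0.47 and 0.064, while the replicate block kept it (-0.21, adjusted p = 0.0040). The ratio of NR1H2 to NR1H3 was 2.37 ± 0.29 in untreated and 2.83 ± 0.38 in VPA-treated libraries, which overlapped (exact permutation p = 0.2, also 0.2 adjusted). MYLIP, a ubiquitin ligase that liver X receptors induce to degrade lipoprotein receptors, had 427, 465 and 463 normalized counts without VPA and 421, 411 and 409.8 with VPA. All its VPA-treated libraries were lower, its log2 fold change of -0.12 ± 0.06 did not pass (adjusted p = 0.099), and library totals gave 0.01. MYLIP was called lower without untreated replicate 1 (-0.17, adjusted p = 0.038) and higher with ribosomal protein genes as the reference (0.15, adjusted p = 0.048).

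Related genes of the wider pathway, in 7 lists, were called in different proportions. Over the 89 of these genes tested, 29 rose and 29 fell, or 32.6% each, near the background of 32.9% and 30%. With ribosomal protein genes as the scaling, 64 of the 89 rose and 3 fell, so the directions in these lists are relative to TMM. These lists were described by their counts and medians, and no test compared them.

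The list of sterol transport and ester breakdown, with receptors among its genes, had 12 genes that rose and 2 that fell of 23. These were 52.2% and 8.7%, beside 32.9% and 30% of all genes tested, and the median log2 fold change was 0.22. LRP1, an endocytic receptor, rose by 1.34 ± 0.05 (1173 ± 42.1 to 2959 ± 137 normalized counts), GRAMD1C, a sterol transfer protein, by 1.34 ± 0.12, and VLDLR, a lipoprotein receptor, by 0.99 ± 0.09, while STARD3 (-0.23) and OSBP (-0.15) fell. The list of liver X receptor target and efflux genes held 11 genes, among them the receptor partners RXRA and RXRB and the corepressor NCOR1. Of these 11, 7 rose (63.6%, beside 32.9% of all genes tested) and 3 fell (27.3%, beside 30%), with a median of 0.32. A rise of at least 1 on the log2 scale was seen in 4, beside 12% of all genes tested. ABCG1, a sterol exporter, went from 41.8 ± 9.27 to 205 ± 4.27 normalized counts (2.29 ± 0.13, adjusted p = 2.1e-12). SCARB1 (-0.25) fell, as did RXRB (-0.47) and NCOR1 (-0.12), which are neither targets nor efflux genes.

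Fatty acid synthesis genes driven by SREBP-1 were mixed, with 6 that rose and 4 that fell of 14. These were 42.9% and 28.6%, beside 32.9% and 30% of all genes tested. FADS2, a fatty acid desaturase, rose by 0.84 ± 0.05 (1090 ± 25.3 to 1946 ± 90.4 normalized counts), ACSS2 by 0.42 and ELOVL6 by 0.36, whereas ACSL3 fell (-0.31), as did FASN (-0.30) and ACLY (-0.21). Of the 13 genes of SREBP cleavage and endoplasmic reticulum degradation 0 rose and 7 fell in edgeR (7 at an unadjusted p under 0.05, a smaller share than the 66.2% of all genes tested) and in DESeq2, among them VCP (-0.42), ERLIN1 (-0.28) and SPRING1 (-0.26), but with ribosomal protein genes as the scaling 7 rose and 1 fell.

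In the isoprenoid branch, which makes prenyl groups, ubiquinone side chains and dolichol, 9 of 14 genes fell and 1 rose, against 1 and 6 with ribosomal protein genes as the scaling. RABGGTA, a prenyltransferase subunit for Rab proteins, fell by 0.61 on the log2 scale (adjusted p = 1.4e-08), FNTB (farnesyltransferase) by 0.54 and RCE1 (a CAAX protease) by 0.42, and PDSS2 rose by 0.37. Of 9 tested other sterol enzymes and their redox partners, 2 rose, CYP2R1 (0.66), a vitamin D hydroxylase, and CYB5A (0.17). Another 2 fell, ERG28 (-0.14) and LBR (-0.12). These were 22.2% each, beside 32.9% and 30% of all genes tested. Of 5 tested genes in the list of oxysterol and bile acid enzymes 1 rose, SULT2B1 (2.18, from 11.8 ± 1.64 to 54.1 ± 9.51 normalized counts). HSD3B7 (-0.64) fell, as did EBPL (-0.30), which was in this list but is not an oxysterol or bile acid enzyme. The shares that rose and fell were 20% and 40%, beside 32.9% and 30% of all genes tested.

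**Figure D5:**
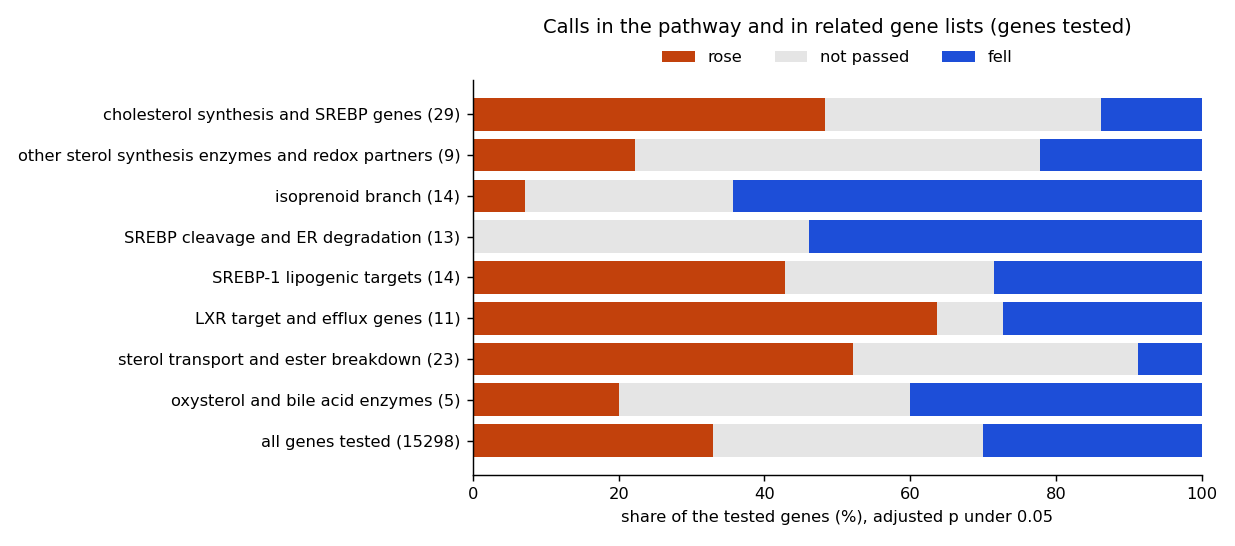
Share of tested genes that rose, fell or did not pass (adjusted p under 0.05) among the cholesterol synthesis and SREBP genes, 7 related lists and all genes tested, with the number tested in parentheses. The pathway genes have 48.3% rising and 13.8% falling, and the isoprenoid branch 64.3% falling. Of all genes tested 32.9% rose and 30% fell.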

How the data were processed

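RNA-seq libraries (3 untreated, 3 VPA-treated) were compared. The authors cleaned the reads (SOAPnuke), mapped them on hg38 by STAR (2.7.10b in the submitters' processing notes) and deposited raw counts per gene from htseq-count (HTSeq 2.0.1 in those notes). The annotation and strand setting are not given in the sources used here. Reads off genes, ambiguous or not unique made up 11.8% to 12.7% of those listed and were left out, and totals on genes were 18622267 to 18828495.

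The counts were tested in edgeR 4.0.16 (R 4.3.3) with TMM, filterByExpr (minimum 10), a prior count of 0.125, a robust quasi-likelihood fit on condition, and Benjamini-Hochberg adjustment over 15298 genes. The biological coefficient of variation was 3.83%. SE is the log2 fold change over the root of F. The test was tried on simulated data in which few genes changed, as many up as down. That trial cannot speak to the choice of scaling in these data. DESeq2 1.42.0, 4 other scalings, 2 other filters, a stricter threshold, glmTreat, a replicate block and leaving out each library were alternatives. Promoters are from RefSeq (GRCh38.p14), and transcript lengths from GENCODE. Members and lists were chosen with earlier results of these data known. All 30 members are named, and in each list up to 3 genes per direction, those of largest change that passed the test at 50 or more normalized counts on average. SULT2B1, below that minimum, was chosen after its value was seen.

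Same-numbered libraries deviated together over the 11065 genes that averaged 100 normalized counts or more (r = 0.40, 0.14 and 0.33), but less so over all 15298 genes (0.13, 0.02 and 0.07). The labels do not give pairs, and the main test and the permutation tests of ratios did not use them. The replicate block was an alternative only, and the blocked value is given where it changes a call.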

Additional observations from a re-analysis of the deposited data

How the results depend on the processing

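The 3 libraries per condition and an error (SE) of 0.04 to 0.11 on the log2 scale limit the tests, so the genes that did not pass may still differ slightly. Leaving out each library gave 13 to 15 genes that rose and 2 to 6 that fell, with 0 past a log2 fold change of 1, and 29 to 31 and 26 to 34 in the related lists. The count that fell was 2 without VPA-treated replicate 3, 2 with upper quartile scaling, 2 with library totals, 2 at an adjusted p under 0.01 and 1 with ribosomal protein genes, where 26 rose and 1 passed a log2 fold change of 1. In the related lists 13 fell with library totals, and 3 fell and 64 rose with ribosomal protein genes. The replicate block gave 16 that rose and 6 that fell. It changed the calls of GGPS1, FDFT1, SREBF1 and SCAP and of no other pathway gene.

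Of 406 values of single genes under the alternatives, 336 kept direction and call, 33 became calls, 16 lost them and 21 turned sign. MVK was 0.061 with upper quartile, 0.13 with library totals, 0.27 with ribosomal protein genes and 0.018 with 10 counts in every library, and -0.051 to 0.040 when a library was left out (positive without untreated replicate 1 or 2 or VPA-treated replicate 2). With ribosomal protein genes GGPS1 was 0.17, CYP51A1 0.14, SREBF1 0.14, NR1H2 0.067 and MYLIP 0.15, and with library totals GGPS1 was 0.030 and MYLIP 0.0068. SQLE was -0.0041 in DESeq2, -0.0012 without a filter, and -0.033 to 0.047 when a library was left out (negative without untreated replicate 1 or VPA-treated replicate 3). With a library left out, MVD was -0.021 to 0.12 and DHCR7 -0.0068 to 0.058 (both lowest without VPA-treated replicate 1), and NPC1 was -0.0040 to 0.056 (lowest without untreated replicate 1). The cause of these changes was not tested.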
